A study of Mus musculus with 4 samples.

Results

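The Schlafen family was examined in sorted LSK cells of wild-type (WT) and SRC-3 knockout (KO) mice, across 7 genes: Slfn1, Slfn2, Slfn3, Slfn4, Slfn5, Slfn8 and Slfn9. Members were the genes with a probe set that the platform annotation assigns to that gene alone. By this rule 6 of the 7 were measured, with 1 probe set each, among 22180 genes in all. Slfn9 has no such probe set and was not analysed here, because its only one is shared with Slfn8. LSK cells are bone marrow cells without lineage markers and with Sca1 and c-Kit on their surface, and include hematopoietic stem cells and early progenitors. They were sorted from male mice aged 8 weeks, 2 samples being WT and 2 SRC-3 knockout, each hybridised to 1 Affymetrix array. SRC-3, the product of Ncoa3, helps nuclear receptors and other factors to activate transcription. The labels do not say in which cells the knockout acts, how it was made or how many mice a sample pooled. They call the samples biological replicates, and where 2 of them share a source animal, the p-values reflect technical spread alone.

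Schlafen genes encode proteins that restrain growth and viral replication, and many of them are induced by interferon. All share an N-terminal core, and in the mouse they come in a short form (Slfn1 and Slfn2), an intermediate form (Slfn3 and Slfn4) and a long form with a helicase-like C-terminal part (Slfn5, Slfn8 and Slfn9). In blood cells the family is best known for Slfn2, whose loss of function prevents T cells and monocytes from resting. The genes arose by duplication and resemble each other, so a probe set may pick up RNA of a relative, above all between Slfn8 and Slfn9. How much signal is shared was not tested.

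The 6 measured members lie within 264 kb of chromosome 11 (RefSeq, GRCm38.p6), from Slfn5, whose span starts at 82951349, to Slfn3, whose span ends at 83215154. Between them stand Slfn9 and the pseudogene Slfn10-ps. The promoter of Slfn2, the member with the largest difference between genotypes, is shown first, from 250 bases before to 50 bases after its start (chr11:83064862-83065161, plus strand, GRCm38.p6, 5′ to 3′). Capitals mark a short sequence, ACTTCCTGG, that holds the TTCC core bound by ETS transcription factors.
Slfn2: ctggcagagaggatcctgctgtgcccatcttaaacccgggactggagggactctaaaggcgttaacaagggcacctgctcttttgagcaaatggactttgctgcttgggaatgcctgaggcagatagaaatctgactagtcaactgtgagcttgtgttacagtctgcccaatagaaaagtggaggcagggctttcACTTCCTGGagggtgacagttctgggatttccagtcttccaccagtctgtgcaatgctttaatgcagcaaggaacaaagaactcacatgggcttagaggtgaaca

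The same 9 letters stood in the promoters of 4 of the 7 family genes, namely all 4 of the short and intermediate forms, and in none of the 3 long forms. They were noticed by reading these promoters. On either strand they occur in 0.843% of 32851 RefSeq promoter windows of 300 bases, but because the letters were picked from these genes that share tests nothing. The stretches are set out below to show where they match, each with 15 bases on either side and on the strand of the gene, plus in each case (chr11:83116731-83116769, chr11:83065042-83065080, chr11:83191273-83191311 and chr11:83175098-83175136).
Slfn1: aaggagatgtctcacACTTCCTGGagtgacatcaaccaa
Slfn2: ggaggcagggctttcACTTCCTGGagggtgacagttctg
Slfn3: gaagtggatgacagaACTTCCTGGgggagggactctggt
Slfn4: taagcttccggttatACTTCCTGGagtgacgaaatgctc

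The core of the interferon-stimulated response element, GAAA, any 2 bases and GAAA on either strand, was found in the promoters of the 3 long forms and of no short or intermediate form. It occurs in 3.44% of the 32851 windows. The matches are shown with the core in capitals, on the plus strand for Slfn5 (chr11:82951932-82951971) and on the minus strand for Slfn8 (chr11:83020834-83020873) and Slfn9 (chr11:82991851-82991890). Slfn8 has 2 overlapping windows for 2 starts, and both hold the same match. The Slfn5 match lies after 82951349, where the span of Slfn5 starts, so its window belongs to a start inside that span.
Slfn5: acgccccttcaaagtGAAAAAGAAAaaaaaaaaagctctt
Slfn8: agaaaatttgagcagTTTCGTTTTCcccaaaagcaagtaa
Slfn9: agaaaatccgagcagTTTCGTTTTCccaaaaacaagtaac

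The Slfn8 and Slfn9 windows were identical at 80.5% of 308 aligned positions, gaps included, whereas the next most alike of the 21 pairs reached 49.4%. Motif matches describe letters in these windows and show no binding. The element's core was not found in the windows of Slfn1, Slfn2, Slfn3 and Slfn4. Whether it bears on the differences between genotypes was not tested.

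Between genotypes, 5 of the 6 measured members had a higher mean in KO, where 49.7% of all genes did, and Slfn1 a lower one. No member passed the test over all genes (limma, adjusted p under 0.05). Slfn2 and Slfn3 were the members furthest from 0, at 2.21-fold and 1.51-fold higher in KO. In limma 0 of 6 members passed after adjustment, where 0.509% of all genes did (0.397% higher and 0.113% lower). By unadjusted p, under 0.05, Slfn2 and Slfn3 were the 2 members higher in KO, where 10.5% of all genes were, and 0 members were lower, where 6.93% of all genes were. In either direction 17.4% of all genes reached that p. The median difference over the 6 members was 0.30 on the log2 scale, against -0.0010 over all genes.

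**Figure D1:**
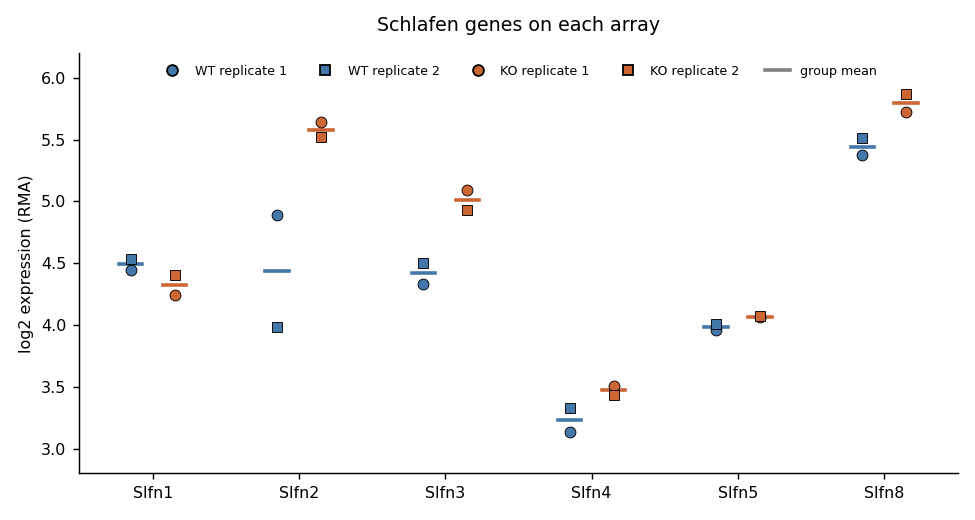
Log2 expression (RMA values, vertical axis) of the 6 measured Schlafen genes on each of the 4 arrays, with circles for replicate 1, squares for replicate 2 and bars for group means. For Slfn2 both KO arrays, at 5.64 and 5.52, stand above WT arrays that are themselves far apart, at 4.89 and 3.98.

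Slfn2 (gene identifier 20556, probe set 17254166) was at 4.89 and 3.98 on the WT arrays and at 5.64 and 5.52 on the KO arrays (log2). Both KO values lay above both WT values, and the WT arrays stood further apart than the KO arrays. The difference was 1.15 ± 0.30 (SE, n = 2 per group), with a 95% interval from 0.41 to 1.88 (limma adjusted p = 0.143). Only 0.834% of genes had a larger increase. The gap of 0.90 between its WT arrays was wider than that of 97.1% of genes, and its SE was the largest among the members. Without WT replicate 1, the higher of that pair, the difference was 1.60 (adjusted p = 0.0241), and in that fit 7.91% of all genes passed. Without WT replicate 2 the difference was 0.69 (adjusted p = 0.0692).

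Slfn1 (20555, probe set 17254171), the other short form, whose overexpression slows the growth of thymocytes, was at 4.45 and 4.54 in WT and at 4.24 and 4.41 in KO. It was the measured member with a lower mean in KO. Its difference was -0.17 ± 0.17 (SE, limma adjusted p = 0.683), and the 95% interval ran from -0.58 to 0.25. The value was -0.086 without KO replicate 1, -0.035 after median centring and -0.031 after quantile normalization. On the chromosome Slfn1 is the next measured Schlafen gene after Slfn2.

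Of the intermediate forms, Slfn3 (20557, probe set 17254188), a gene regulated during T cell activation, was at 4.33 and 4.50 in WT and at 5.09 and 4.93 in KO. The groups did not overlap, and the gaps within them were 0.17 and 0.16. Its difference was 0.59 ± 0.18 (SE), with a 95% interval from 0.16 to 1.02 (limma adjusted p = 0.172). Its SE was smaller than that of Slfn2. Over the fits that each leave out 1 array the Slfn3 difference stayed between 0.51 and 0.68, and 6.63% of genes had a larger increase.

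Slfn4 (20558, probe set 17254176), which macrophages induce on activation, was at 3.13 and 3.33 in WT and at 3.51 and 3.44 in KO. Both KO arrays were above both WT arrays by a small margin. The difference was 0.24 ± 0.17 (SE, limma adjusted p = 0.515), with a 95% interval from -0.15 to 0.64. Without WT replicate 1 it was 0.15, and after median centring 0.38. Its mean over the 4 arrays was 3.35, below the 4.32 of the median gene. RMA compresses values at that end of the scale, which can understate the fold of a dim gene. How far this holds here was not tested.

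The 95% intervals of both measured long forms included 0, as did those of Slfn1 and Slfn4. Slfn8 (276950, probe set 17266861) was at 5.37 and 5.52 in WT and at 5.72 and 5.87 in KO, without overlap. It was 0.35 ± 0.18 higher (SE, limma adjusted p = 0.376), with a 95% interval from -0.078 to 0.78. Part of that signal may come from Slfn9, whose share was not tested. Slfn5 (327978, probe set 17254153), a long form found in the nucleus, was at 3.96 and 4.01 in WT and at 4.06 and 4.07 in KO. These 4 values spanned little, and the difference was 0.08 ± 0.16 (SE, limma adjusted p = 0.851) with a 95% interval from -0.31 to 0.47. After median centring, and after quantile normalization, it was 0.22. Slfn5 was, like Slfn4, below the level of the median gene, at a mean of 4.03.

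In all, both KO arrays lay above both WT arrays for 5 of the 6 members and below both for Slfn1. Of all genes 25.1% had both KO arrays above and 22.9% both below, so such separation is common here with 2 arrays a group. The 95% intervals of 4 members included 0. Levels are not compared between members, because probe sets differ in brightness for the same amount of RNA. In RNA from sorted cells, a different mix of cells and a different amount of RNA per cell cannot be told apart.

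**Figure D2:**
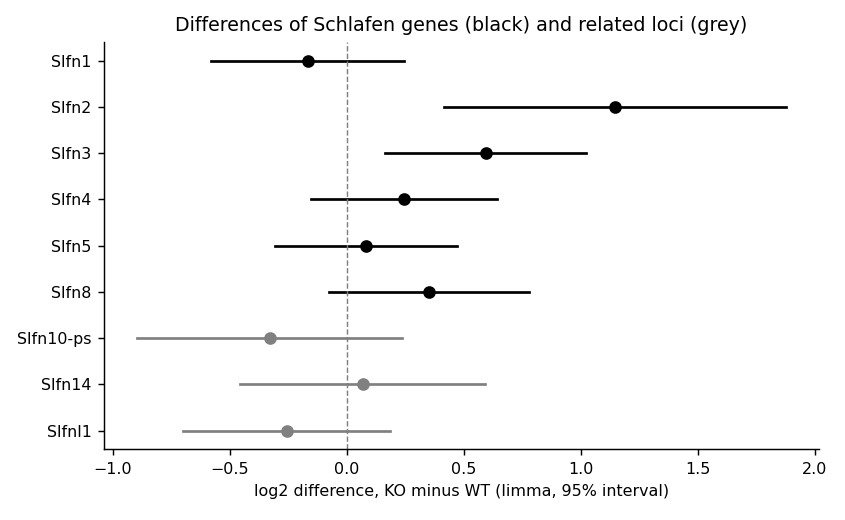
Difference in log2 expression, KO minus WT (horizontal axis), with its 95% limma interval, for the 6 measured Schlafen genes in black and 3 related loci in grey. The intervals of Slfn2 (0.41 to 1.88) and Slfn3 (0.16 to 1.02) lie right of 0, and the others include it.

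Related loci outside the 7 genes gave no call either. Slfn10-ps, the pseudogene next to Slfn8, was at 4.41 on both WT arrays and at 3.77 and 4.39 on the KO arrays, a difference of -0.33 ± 0.24 (SE, limma adjusted p = 0.535). Only KO replicate 1 stood clearly apart, and without it the difference was -0.024. Slfn14, which encodes a ribosome-associated nuclease of platelets and red cells and lies beyond Slfn3, was at 2.89 and 3.40 in WT and at 3.11 and 3.33 in KO. Its groups overlapped, its level was dim, and the difference was 0.07 ± 0.22 (SE, limma adjusted p = 0.917). That small difference turned to -0.19 without WT replicate 1 and to -0.044 without KO replicate 2, and was 0.32 without WT replicate 2. Slfnl1, a distant relative on chromosome 4, was at 5.06 and 4.78 in WT and at 4.70 and 4.63 in KO (-0.26 ± 0.18, SE, limma adjusted p = 0.534). It was at -0.12 without WT replicate 1 and at -0.39 without WT replicate 2.

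Neighbouring genes, with the related loci Slfn10-ps and Slfn14 counted among them, show how the cluster compares with its surroundings. Among 22 measured genes that lie between the members or are the nearest 10 on each side, 0 passed limma's adjusted threshold, and by unadjusted p, under 0.05, 2 were higher and 0 lower, near the 10.5% and 6.93% of all genes. Their median difference was 0.05. The largest was that of 1700020L24Rik, at 5.23 and 5.02 in WT and 6.47 and 6.24 in KO, a difference of 1.23 ± 0.19 (SE, limma adjusted p = 0.0617). With WT replicate 1 left out its difference was 1.34 and with WT replicate 2 left out 1.13. Its limma adjusted p ran from 0.0350 to 0.0397 with a filter on level, median centring or quantile normalization. The other was Ccl5, a chemokine gene, at 0.85 ± 0.28 (SE, limma adjusted p = 0.200). It was at 0.44 without WT replicate 1 and at 1.25 without WT replicate 2. RefSeq places the non-coding gene Gm20234 inside the span of Slfn2, so their signals may not be independent. It was matched by symbol alone, and its identifiers differ (102635154 in RefSeq, 100504448 for the probe set), so this position is uncertain. Gm20234 was at 4.93 and 5.33 in WT and 5.52 and 5.65 in KO, 0.45 ± 0.21 higher (SE, limma adjusted p = 0.327). The difference was 0.25 without WT replicate 1 and 0.65 without WT replicate 2. Unlike Slfn2, Gm20234 was lower on WT replicate 1 than on WT replicate 2. The nearest measured genes outside the cluster were Unc45b, at 0.08 ± 0.27, and the non-coding gene AI662270, at 0.33 ± 0.15 (SE). Unc45bos, which lies within the span of Unc45b, was at -0.14 ± 0.16. AI662270 was at 0.15 without WT replicate 1 and at 0.51 without WT replicate 2.

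**Figure D3:**
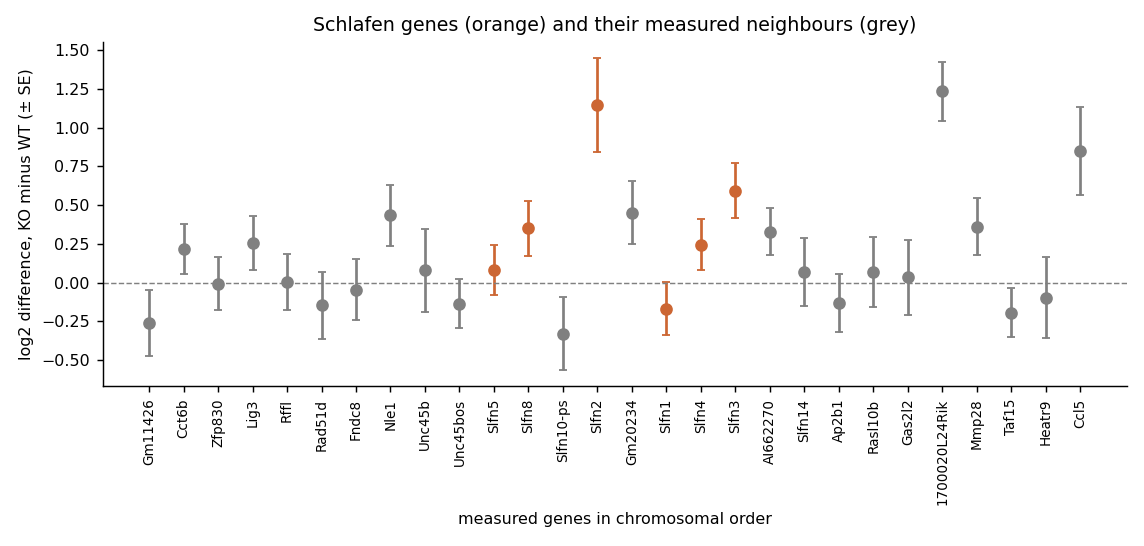
Difference in log2 expression, KO minus WT, with its SE (vertical axis), for 28 measured genes in chromosomal order along the horizontal axis, Schlafen members in orange and other genes in grey. Slfn2 at 1.15 and 1700020L24Rik at 1.23 have the largest differences, and Slfn1, between Slfn2 and Slfn4, is below 0.

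Interferon induces many Schlafen genes, so genes of the interferon response were set beside the family. Of 42 listed genes 36 were measured, and 10 rose and 0 fell past the adjusted threshold, where 0.397% of all genes rose. The interferon list's median difference was 0.78, against 0.30 for the Schlafen members. Iigp1, an interferon-induced GTPase gene, was at 6.56 and 7.15 in WT and at 9.66 and 9.67 in KO, a rise of 7.02-fold (limma adjusted p = 0.00942). Ifi204, Cxcl10, Zbp1, Usp18 and Isg15, the others of smallest p, rose by 8.52-fold, 5.87-fold, 5.20-fold, 3.03-fold and 3.49-fold. These 6 genes were chosen by their p. Slfn2, at 2.21-fold, was below all 6, but of the 36 interferon genes 11 had a larger increase than Slfn2 and 25 a smaller one. This list was written knowing that interferon genes are high in these KO samples and is no independent evidence. With KO replicate 1 or KO replicate 2 left out limma called 0 interferon genes, with 16 and 17 at an unadjusted p under 0.05, and without WT replicate 1 or WT replicate 2 the calls were 21 and 19, in fits where 7.91% and 13.5% of all genes passed. With the unnamed and shared probe sets kept in the fit 1 was called.

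Of the genes that carry the interferon signal, 16 of 17 listed were measured. Usp18, Stat2 and Irf9 are also in the response list. Usp18, a feedback inhibitor, rose past the adjusted threshold. Another feedback inhibitor, Socs1, was 0.79 ± 0.17 higher (SE, adjusted p = 0.102) and the transcription factor Stat2 0.63 ± 0.19 higher (adjusted p = 0.172). Socs1 passed with either WT array left out (adjusted p = 0.0375 and 0.0243), and Stat2 with WT replicate 1 left out (adjusted p = 0.0279). By unadjusted p, under 0.05, the higher genes numbered 5 and the lower 1 of 16, where 10.5% and 6.93% of all genes were. The lower gene was Ifnar1, at -0.62 ± 0.21 (SE, limma adjusted p = 0.211). The median difference of the 16 was 0.07.

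**Figure D4:**
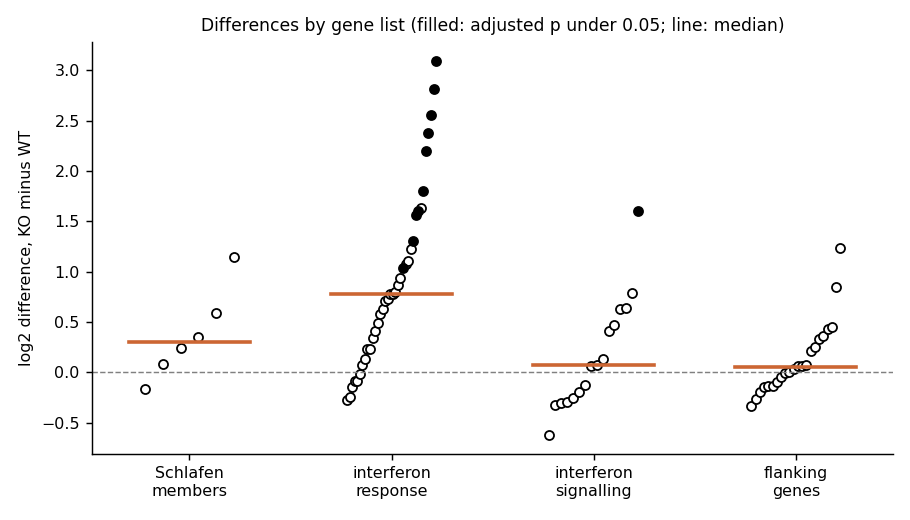
Difference in log2 expression, KO minus WT (vertical axis), of each gene in 4 lists (horizontal axis), with filled points for limma adjusted p under 0.05, open points otherwise and an orange line at each list's median. The medians are 0.30 for Schlafen members, 0.78 for interferon response genes, 0.07 for interferon signalling genes and 0.05 for the cluster's neighbours.

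On WT replicate 1 Slfn2 was 0.90 above WT replicate 2, while the 36 interferon genes went both ways, with 17 higher on WT replicate 1 and a median of -0.032. Their widest gaps were 0.75 higher on WT replicate 1, for Oasl1, and 0.62 lower there, for Ifit1. Of the 36, 0 had a gap as wide as that of Slfn2. Over all genes 97.1% had a narrower gap than Slfn2, so a count near 0 is common for a list of this size. The other 5 members were between 0.052 and 0.19 lower on WT replicate 1. The genes whose profile over the 4 arrays was most like that of Slfn2, by Euclidean distance after centring each gene, were Htra2, Rrp9 and BC147527, at distances of 0.069, 0.084 and 0.15. Htra2, a mitochondrial serine protease gene, averaged 8.54 in WT and 9.65 in KO and was 0.93 higher on WT replicate 1 than on WT replicate 2. Rrp9, which works in ribosomal RNA processing, was at 6.82 and 5.80 in WT and 7.53 and 7.40 in KO. With 4 arrays and 22180 genes some near matches are to be found for any profile.

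Several kinds of mature blood cell express Schlafen genes, so their markers are given beside these results. Ncoa3 fell from 7.41 to 5.22 (log2 means, limma adjusted p = 0.0380), as the labels have it. Without KO replicate 1 its adjusted p was 0.716, without KO replicate 2 0.551, and with all probe sets in the fit 0.0948. Of 6 measured LSK markers Kit, Cd34, Flt3 and Cd48 were bright, with Kit at 10.3 and 9.65 in WT and 9.43 and 9.34 in KO. The 6 had a median difference of -0.51. By unadjusted p, under 0.05, 3 were lower and 0 higher, where 6.93% and 10.5% of all genes were. Cd34, the one of smallest p, was 0.68 ± 0.13 lower in KO (adjusted p = 0.0852) and Flt3, a receptor gene of multipotent progenitors, was at -1.21 ± 0.27 (SE, adjusted p = 0.108). Ly6a, which encodes Sca1, was not analysed here. The T cell markers Cd2, Cd3d, Cd3e, Cd3g and Cd8a were dim, with means over the 4 arrays from 2.68 to 3.05. Cd4 and Cd5 averaged 4.54 and 4.92, above the 4.32 of the median gene. Over the 10 measured T and NK markers the median difference was -0.0098, and Klrb1c, of smallest p, was at -0.85 ± 0.18. The summed linear level of these 10 was 911 and 1228 in WT and 1347 and 1420 in KO, most of it Nkg7, a granule gene of cytotoxic cells. The other 9 summed to 111 and 122 in WT and 111 and 109 in KO.

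Markers of neutrophils and erythroblasts had higher summed levels in KO, and for monocyte markers the higher sum came from Ly6c2. The summed linear level of 10 neutrophil markers was 294 and 371 in WT and 662 and 694 in KO, with a median difference of 0.90. By unadjusted p, under 0.05, 6 of them were higher and 0 lower, where 10.5% and 6.93% of all genes were. Camp, a granule protein gene, had the smallest p, at 1.80 ± 0.26 (adjusted p = 0.0565), while Ly6g, the defining surface marker, was dim at 2.84. Camp passed with a filter on level, median centring, quantile normalization or the replicate number as a block (limma adjusted p from 0.0193 to 0.0475). It did not pass with other probe set rules or without the intensity trend (0.0552 to 0.110). For 11 monocyte and macrophage markers the sum was 3358 and 3751 in WT and 5148 and 5547 in KO. By unadjusted p, under 0.05, 1 of the 11 was higher and 1 lower, where 10.5% and 6.93% of all genes were. Ly6c2 was the higher marker, at 0.71 ± 0.13 (SE, limma adjusted p = 0.0788), and Itgam the lower, at -1.21 ± 0.27 (adjusted p = 0.109). Ly6c2 made up most of that sum, and the other 10 summed to 711 and 606 in WT and 617 and 619 in KO. Of 6 erythroblast markers 3 rose past the adjusted threshold, where 0.397% of all genes rose. Ermap, at 15.6-fold, and Rhag, at 12.7-fold, were among the 3, while Slc4a1 was at -0.96 ± 0.24 (SE, limma adjusted p = 0.130). The sum of the 6 was 487 and 502 in WT and 1373 and 1394 in KO. For 6 megakaryocyte and platelet markers it was 308 and 350 in WT and 458 and 463 in KO, most of the difference being that of Pf4, 1.27 ± 0.26 higher (SE, adjusted p = 0.0987). B cell markers had a median difference of -0.18 over 9 genes, a sum of 284 to 288 in WT and 283 to 288 in KO, and Ebf1 at -0.84 ± 0.24. Without Cd79b, the brightest, the other 8 summed to 133 and 146 in WT and 108 and 110 in KO. By unadjusted p, under 0.05, 2 of the 9 were lower and 0 higher, where 6.93% and 10.5% of all genes were. Of 7 dendritic cell markers Bst2, which interferon also induces, rose 2.06-fold (limma adjusted p = 0.0302, and 0.0733 with all probe sets in the fit), the median difference was -0.13, and the sum was 2399 and 1969 in WT and 3052 and 3080 in KO. Without Bst2 the other 6 summed to 1088 and 739 in WT and 477 and 433 in KO, with Flt3 at -1.21 ± 0.27, Tcf4 at -0.95 ± 0.20 and Xcr1 at -0.73 ± 0.25 (SE). With either WT array left out, where the larger shares of all genes given above passed, Cd34, Flt3, Tcf4, Camp, Ly6c2 and Pf4 passed too, at adjusted p from 0.00793 to 0.0422, and without WT replicate 2 so did Itgam (0.0165), Nkg7 (0.00978) and Kit (0.00815). With all probe sets in the fit Ermap had an adjusted p of 0.0520. Without either KO array no marker of these lists passed, as limma then called 0 genes, with 1471 and 1910 at an unadjusted p under 0.05. The part of these cells in the Schlafen values was not tested.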

How the data were processed

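RNA of 2 WT and 2 KO samples of LSK cells was measured on 4 arrays. Log2 values for 41345 probe sets were deposited by the authors in 1 table, with the scale judged from the values. RMA and Affymetrix Expression Console 1.2.1 are named per the submitters' processing notes; the sources used here do not state their settings or a genome build. Probe sets with 1 gene symbol (23521) were kept, those with several (1814) or not listed (16010) left out, and the probe set of highest mean stood for its gene, giving 22180 genes, without a filter on dim genes. Genotypes were compared by a linear model in limma 3.58.1 under R 4.3.3 (empirical Bayes with an intensity trend), two-sided, with Benjamini-Hochberg adjustment over all genes and a threshold of 0.05. The script was tested on simulated data. Sequencing depth does not apply; 2 arrays per group limit the precision. Promoters are from RefSeq (GRCm38.p6), which held a window for all 7 genes, and were aligned globally with Biopython 1.88 (match 1, mismatch -1, gap opening -3, gap extension -0.5). Summed levels add 2 to the power of each log2 value.

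The members and lists were chosen with earlier results of these data known. Named genes are all members and related loci, the 6 interferon response and 3 signalling genes of smallest p, and 1 gene per marker list. Also named are neighbours with an unadjusted p under 0.05 or that start or lie nearest the cluster. The 3 genes nearest to Slfn2 in profile complete them. Other genes, Gm20234 and the sequence ACTTCCTGG were picked after their values or letters were seen. Alternatives were other probe set rules, a level filter, quantile normalization, median centring, no trend, the replicate number as a block and each array left out. One planned promoter motif is not reported here.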

Additional observations from a re-analysis of the deposited data

How the results depend on the processing

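No member changed sign under any alternative run. Members past the adjusted threshold numbered 0 under each alternative except without WT replicate 1, where there was 1, Slfn2. Over the fits without 1 array the Slfn2 difference ran from 0.69 to 1.60; a group left with 1 array is assumed to vary like the other. Over the same fits the difference of Slfn14 ran from -0.19 (without WT replicate 1) to 0.32 (without WT replicate 2), and was -0.044 without KO replicate 2. Over all genes 113 passed (77.9% higher), against 27 with all probe sets in the fit, 289 with the level filter (genes as bright as the median gene or brighter), 362 after median centring (88.4% higher) and 189 after quantile normalization, and 0 to 3002 with 1 array left out. Interferon-response calls were 10, 1 with all probe sets, and 0 to 21 with 1 array left out. Neighbour calls were 0, 1 each with the level filter, after median centring and after quantile normalization, and 0 to 4 with 1 array left out. The cause was not tested. Median centring shifted the median gene by 0.13 upward; Slfn1 was then at -0.035, Slfn3 at 0.73 (adjusted p = 0.0912) and Slfn2 at 1.28 (adjusted p = 0.0787). The labels share replicate numbers but do not say that a number marks a shared source, and deviations of same-numbered arrays correlated at 0.113 across genes. With the replicate block 111 genes passed, 8 interferon-response genes, 0 neighbours and 0 members, and the adjusted p was 0.0950 for Slfn2 and 0.0537 for Bst2; member differences do not change with it.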
